A study of Danio rerio with 30 samples.

Results

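Radial glia are the stem cells and scaffold of the fish brain, and together with astroglia they take up the transmitter glutamate, turn it into glutamine and answer Notch signals from neighbouring cells. The 6 genes described here mark these cells. They were gfap (an intermediate filament protein of astroglia), her4.1 (a transcriptional repressor switched on by Notch), fabp7a (a fatty acid binding protein of radial glia), slc1a2b (a glutamate transporter), glula (a glutamine synthetase) and s100b (a calcium-binding protein). They were taken by symbol, as all transcripts whose name carries the gene's symbol, and their counts were summed per gene in each library. This gave 15 of 59876 transcripts and 6 of 31846 genes. All 6 had enough reads to be among the 18543 genes tested.

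The libraries were RNA-seq of total RNA from whole AB (wild type) zebrafish larvae collected 120 hours after fertilization (120 hpf). The 10 groups of 3 libraries were a Control and methylparaben (MtP), ethylparaben (EtP) or propylparaben (PrP), each at the dose labels BMD5, BMD5/10 and BMD5/50. These preservatives are esters of p-hydroxybenzoic acid with a methyl, ethyl or propyl group. With the concentrations behind the labels, the time of exposure and the larvae per library not given in the sources used here, a comparison of compounds at the same label need not be at the same concentration. The title of the series asks whether the compounds differ in their developmental neurotoxicity. Larvae were not dissected or sorted, so each value sums over all tissues that express the gene, and fewer glial cells and less RNA per glial cell cannot be told apart.

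Total counts ran from 9711814 to 24468093 per library. The libraries that the labels number 1 stood apart from those numbered 2 and 3 in every treated group and in Control for many genes, and 10460 of 18543 genes differed between them (56.4%). Values are therefore given with the library number throughout. Nothing in the labels says that the 3 libraries of a group came from separate clutches, so the spread that the p-values measure is that between these samples and may be technical.

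Per length, in TPM (transcript abundance relative to all transcripts of a library) summed over a gene's transcripts, the lipid carrier and both genes of glutamate handling led. The level of fabp7a was 893.7 ± 282 TPM (SD, n = 30 libraries), with a range of 526 to 1524. It was followed by glula with 336 ± 95.9 TPM and slc1a2b with 247 ± 66.2 TPM. Lower levels were found for gfap (56.0 ± 12.7 TPM), s100b (26.7 ± 5.44 TPM) and her4.1 (17.5 ± 4.85 TPM). The order of the means was the same in RPKM. The ranges over libraries of neighbours in this order overlapped, except for slc1a2b (157 to 367 TPM) and gfap (32.5 to 90.7 TPM). They were 221 to 576 TPM for glula, 16.9 to 37.1 TPM for s100b and 12.1 to 33.7 TPM for her4.1. Within each single library the order of the 6 genes was the same. It was closest in the PrP BMD5 library numbered 1, with s100b at 26.29 and her4.1 at 26.17 TPM. In total reads, slc1a2b had 368133 over the 30 libraries, glula 230183, fabp7a 179998, gfap 56322, s100b 11256 and her4.1 5251. With 109 to 270 reads per library, her4.1 had the fewest reads of the 6. By mean CPM (counts scaled to library size), slc1a2b, glula, fabp7a and gfap lay at percentiles 99.1, 98.7, 98.4 and 95.4 of the tested genes, s100b at 74.6 and her4.1 at 58.0.

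The genes lie on 6 chromosomes, at coordinates given as in the deposited table, and no source used here gives their build. They are gfap (ENSDARG00000025301, chr3:31792441-31804481, minus strand), her4.1 (ENSDARG00000056732, chr23:21452557-21453614, minus), fabp7a (ENSDARG00000007697, chr17:15433518-15435887, plus), slc1a2b (ENSDARG00000102453, chr25:37366698-37407757, plus), glula (ENSDARG00000099776, chr2:18988407-18992350, plus) and s100b (ENSDARG00000057598, chr22:13846130-13857729, minus). No other gene of the table overlapped any of them (0 genes). Nearly all reads of 5 genes went to 1 transcript. The share was 100% for gfap and her4.1, which have 1 transcript in the table, 99.4% for fabp7a-201, 99.4% for glula-202 and 97.1% for s100b-201. The transporter slc1a2b was spread over more transcripts, with 86.4% of its reads on slc1a2b-202 (73.0 to 97.2% in single libraries), 7.004% on slc1a2b-204 and 5.15% on slc1a2b-201, whose start lies upstream of that of slc1a2b-202. The share on slc1a2b-202 was 87.3 ± 5.74% (SD, n = 10) in the libraries numbered 1 and 85.4 ± 6.99% (SD, n = 20) in the others.

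Several members have close copies. The repressor her4.1 belongs to a cluster of near-identical genes, of which her4.2 had 40.9 ± 8.78 TPM (SD, n = 30), her4.4 18.7 ± 5.04 TPM and her4.3 0.547 TPM, so the split of reads between her4.1 and these copies is uncertain. The second glutamine synthetase gene of the larva, glulb, had 204 ± 25.1 TPM, while glulc had 0.629 TPM. The lipid carrier copy fabp7b had 18.0 TPM and the transporter copy slc1a2a 14.4 TPM, both well under their partners fabp7a and slc1a2b. The related glutamate transporters slc1a3a and slc1a3b had 13.7 and 2.32 TPM.

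**Figure D1:**
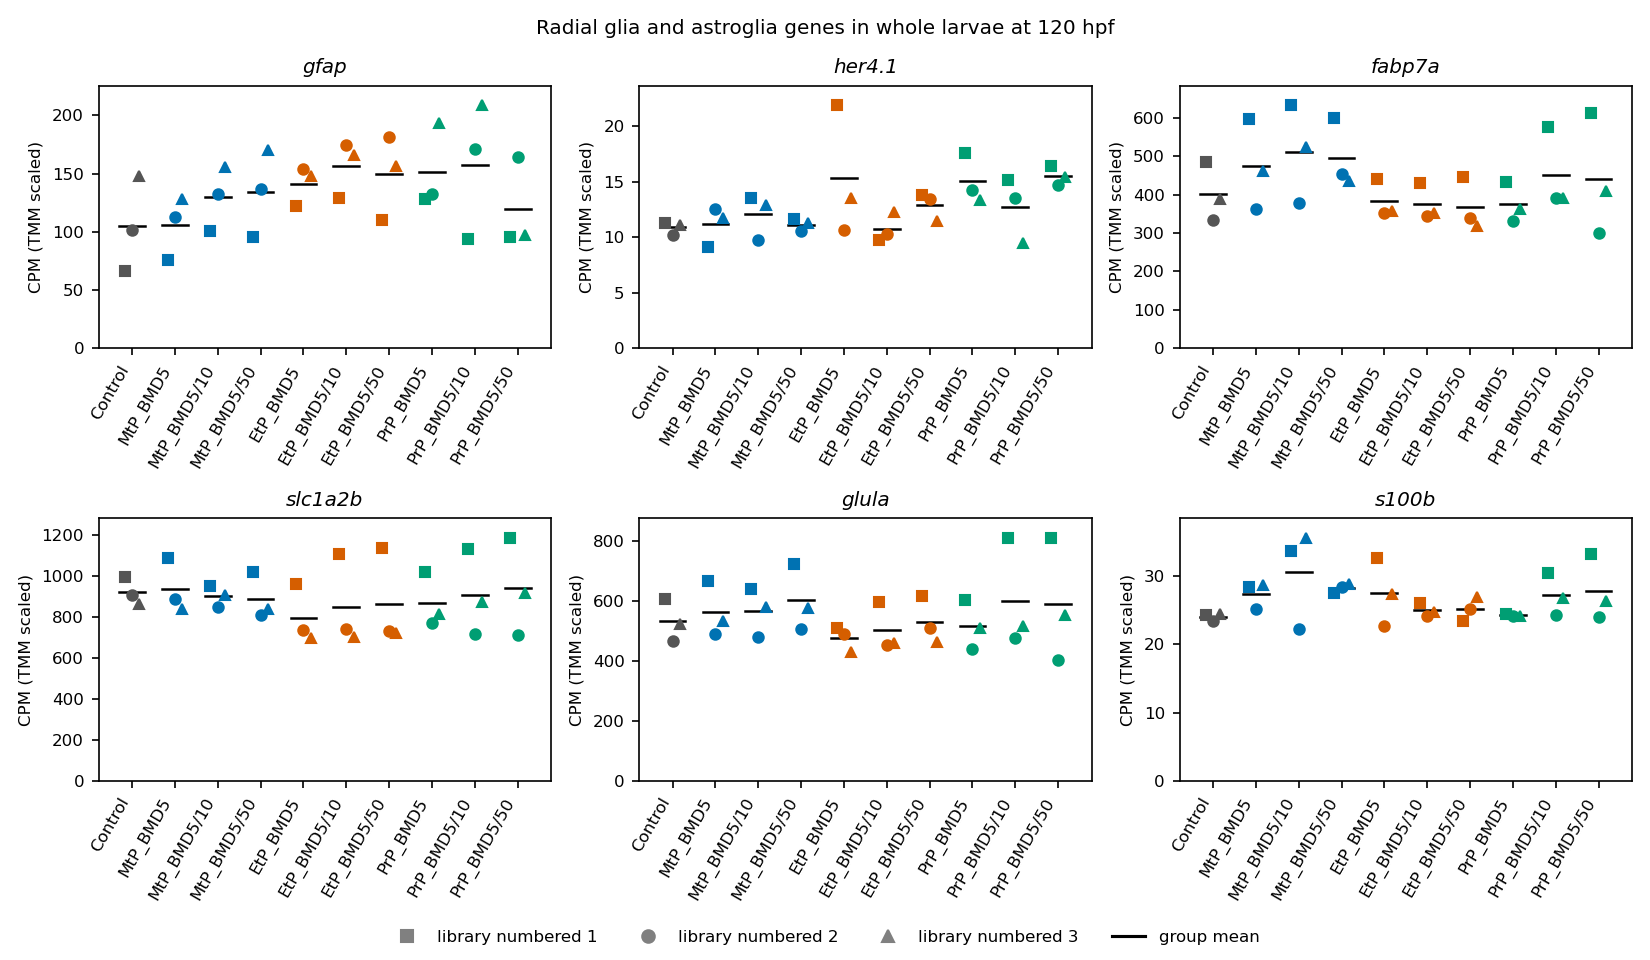
CPM (TMM-scaled) of each of the 6 genes in every library, by group, with squares for libraries numbered 1, circles for 2, triangles for 3 and bars for group means. Squares lie highest in each of the 10 groups for fabp7a, slc1a2b and glula and lowest in each group for gfap, by a small margin in PrP BMD5/50 (95.6 against 97.6 CPM).

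Against Control, none of the 6 genes was called in any of the 9 treated groups (edgeR quasi-likelihood test, adjusted p under 0.05). Over all genes tested the called share was 0% in each of these 9 comparisons. Of the 54 tests of members, 4 had an unadjusted p under 0.05, and the lowest adjusted p was 0.999. DESeq2 also called none. Of all 18543 genes tested, 233 (MtP BMD5) to 877 (MtP BMD5/50) had an unadjusted p under 0.05 in a single comparison (edgeR). The 9 comparisons share the 3 Control libraries, so their values are not independent of each other. The counts of positive fold changes over these groups, given below, are therefore not counts of separate results. The share of all genes with such counts was not computed. No exact permutation test was used for single genes, since with 3 libraries on each side its smallest two-sided p is 0.1.

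The filament gene gfap was at 66.2, 101.5 and 147.5 CPM in the Control libraries numbered 1, 2 and 3. In MtP it was at 76.1, 112.3 and 128.2 CPM at BMD5, at 100.9, 132.8 and 155.5 CPM at BMD5/10 and at 95.1, 136.9 and 170.2 CPM at BMD5/50. In EtP it was at 121.8, 153.7 and 147.6 CPM at BMD5, at 128.9, 174.2 and 165.7 CPM at BMD5/10 and at 110.4, 181 and 156.5 CPM at BMD5/50. All 9 treated groups overlapped with Control, whose own libraries were far apart. In PrP it was at 128.4, 132.1 and 193.2 CPM at BMD5, at 93.9, 170.8 and 208.4 CPM at BMD5/10 and at 95.6, 164.3 and 97.6 CPM at BMD5/50, where the third library was low. The fold change against Control was positive in 9 of 9 groups, from 0.0068 to 0.59 on the log2 scale, with a median standard error of 0.31. Averaged over the 3 labels of a compound it was 0.50 for EtP (95% interval -0.034 to 1.04, adjusted p = 0.9998, edgeR), 0.43 for PrP (-0.10 to 0.97) and 0.22 for MtP (-0.31 to 0.75). The difference from the same-numbered Control library was uneven. It was 0.86, 0.74 and 0.085 log2 for EtP in libraries numbered 1, 2 and 3, 0.66, 0.61 and 0.097 for PrP, and 0.44, 0.32 and 0.027 for MtP. In the libraries numbered 3 the treated values lay on both sides of Control, from 97.6 to 208.4 CPM.

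The Notch target her4.1 was at 11.3, 10.2 and 11.1 CPM in Control, a narrow range. In PrP it was at 17.6, 14.2 and 13.3 CPM at BMD5, at 15.101, 13.6 and 9.45 CPM at BMD5/10 and at 16.4, 14.7 and 15.5 CPM at BMD5/50. In EtP it was at 21.8, 10.6 and 13.5 CPM at BMD5, at 9.75, 10.3 and 12.3 CPM at BMD5/10 and at 13.8, 13.5 and 11.5 CPM at BMD5/50. All 3 libraries lay above all Control libraries in PrP BMD5, PrP BMD5/50 and EtP BMD5/50, where 3.61%, 2.13% and 3.78% of all tested genes did the same. In MtP it was at 9.14, 12.5 and 11.8 CPM at BMD5, at 13.5, 9.77 and 12.9 CPM at BMD5/10 and at 11.6, 10.5 and 11.2 CPM at BMD5/50, overlapping with Control at every label. The fold changes ranged from -0.014 to 0.51 log2 and 8 of 9 were positive. The fold change against Control was 0.47 ± 0.20 (SE) in PrP BMD5, 0.51 ± 0.20 in PrP BMD5/50 and 0.49 ± 0.20 in EtP BMD5, each with an adjusted p of 0.9999 (edgeR). In EtP BMD5 only the library numbered 1 lay far from Control, and without it the fold change was 0.14. The mean of the PrP labels was 0.40 above Control (95% interval 0.049 to 0.75, adjusted p = 0.9998, edgeR), with differences of 0.53, 0.46 and 0.16 in libraries numbered 1, 2 and 3. The near-identical copies had other values in the same contrast, and their difference from her4.1 was not tested. The copy her4.2 had -0.0086 ± 0.15 (SE), her4.4 0.17 ± 0.19 and her4.3, with few reads, 0.80 ± 0.66, none called.

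The calcium-binding protein gene s100b was at 24.3, 23.4 and 24.5 CPM in Control. It was at 28.5, 25.2 and 28.7 CPM in MtP BMD5, at 33.7, 22.3 and 35.7 CPM in MtP BMD5/10 and at 27.5, 28.4 and 28.9 CPM in MtP BMD5/50. In MtP BMD5 and MtP BMD5/50 all 3 libraries lay above all Control libraries, as did 3.09% and 6.79% of all tested genes. The fold change was positive in 9 of 9 groups, from 0.011 to 0.35 log2, and none passed the test. For the mean of the MtP labels it was 0.25 (95% interval 0.0049 to 0.50, adjusted p = 0.9999, edgeR). In EtP and PrP s100b ranged from 22.6 to 33.2 CPM and overlapped with Control at every label.

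The lipid carrier fabp7a and both genes of glutamate handling had fold changes against Control on either side of 0. For fabp7a, Control held 486, 333 and 389.5 CPM, and the fold changes ranged from -0.13 to 0.34 log2. Its mean over labels was 0.29 above Control for MtP (95% interval -0.12 to 0.71), 0.065 above for PrP (-0.35 to 0.48) and 0.10 below for EtP (log2 fold change -0.10, interval -0.51 to 0.31). These intervals leave out the library number, which was taken to pair MtP with Control. Every MtP library lay above the Control library of its number. MtP held 597 to 632 CPM in libraries numbered 1, 362 to 453 CPM in those numbered 2 and 435 to 523 CPM in those numbered 3. The share of all genes doing so was not computed. The transporter slc1a2b, at 993, 904 and 862 CPM in Control, had fold changes of -0.21 to 0.027, of which 2 of 9 were positive. The synthetase glula, at 606, 467 and 524 CPM in Control, had fold changes of -0.16 to 0.18, of which 5 of 9 were positive. With standard errors of 0.24, 0.22 and 0.22 (medians over the 9 comparisons), the 95% intervals over the 9 comparisons reached from -0.63 to 0.85 for fabp7a, from -0.66 to 0.47 for slc1a2b and from -0.62 to 0.64 for glula.

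**Figure D2:**
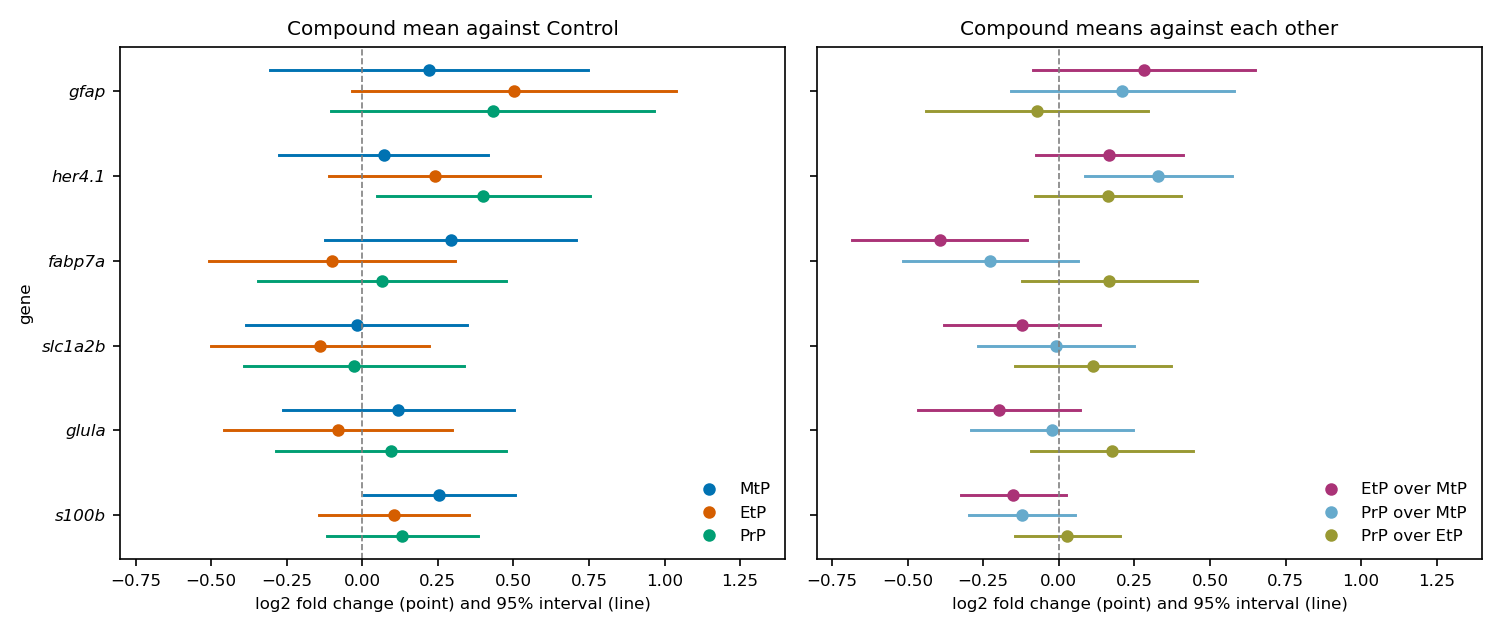
Log2 fold change (edgeR, points) with its 95% interval (bars) of each of the 6 genes, for the mean of a compound's 3 labels against Control on the left and for compounds against each other on the right. Most intervals include 0, and those that do not are her4.1 in PrP and s100b in MtP on the left and fabp7a in EtP against MtP and her4.1 in PrP against MtP on the right.

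The authors' deposited table gives its own fold changes and p-values per transcript against Control. For the main transcripts of the 6 genes, 3 of its 54 p-values are under 0.05 and the lowest q-value is 1. In the authors' deposited table her4.1-201 has a log2 fold change of 0.47 in PrP BMD5 and of 0.52 in PrP BMD5/50, and slc1a2b-202 has -0.31 in EtP BMD5. Over all member transcripts, 7 of 135 p-values in the authors' deposited table are under 0.05 and the lowest q-value is 0.881, for the minor transcript slc1a2b-201 in MtP BMD5/50 (-1.8). The 135 include those of fabp7a-202, without reads, and of slc1a2b-203, with 8 reads over the 30 libraries. The share of such p-values over all transcripts was not computed.

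Compounds were compared at each label (9 comparisons) and as means of the 3 labels (3 comparisons). At a given label none of the 6 genes was called (0% of all genes in each), 3 of 54 tests had an unadjusted p under 0.05 and the lowest adjusted p was 0.736 (edgeR). Of all 18543 genes tested, 225 to 1297 had an unadjusted p under 0.05 in a single comparison at a label (edgeR). The 3 tests of members were all of her4.1, with fold changes of 0.46 ± 0.20 (SE) for EtP against MtP at BMD5 and of 0.44 ± 0.20 and 0.48 ± 0.20 for PrP against MtP at BMD5 and BMD5/50. The first rests on the EtP BMD5 library numbered 1, as it was 0.11 without that library and -0.031 without all libraries numbered 1. Without the latter the values of her4.1 for PrP against MtP were 0.18 at BMD5 and 0.46 at BMD5/50. Between BMD5 and BMD5/50 of the same compound none was called either (0% of all genes). None of those 18 tests had an unadjusted p under 0.05, while 153 (EtP) to 645 (PrP) of 18543 genes did in a comparison. DESeq2 called no member in either family. The fold changes between these labels ran from -0.35 (gfap in MtP, standard error 0.31) to 0.34 (gfap in PrP, 0.31), in opposite directions, and none passed the test.

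Between ethyl- and methylparaben the gene with the smallest p-value among the 6 was fabp7a. In MtP fabp7a was at 597, 362 and 461 CPM at BMD5, at 632, 379 and 523 CPM at BMD5/10 and at 599, 453 and 435 CPM at BMD5/50. In EtP it was at 439, 353 and 357 CPM at BMD5, at 429, 345 and 352 CPM at BMD5/10 and at 446, 340.0 and 317 CPM at BMD5/50. EtP lay below MtP in all 9 pairs of the same label and number, by 0.035 to 0.57 log2, and 5% of all tested genes kept 1 direction in all 9 pairs. These pairs are a description, since the numbers were not taken to pair the libraries for the means of EtP and MtP. Among libraries numbered 1, EtP (429 to 446 CPM) and MtP (597 to 632 CPM) did not overlap, as for 28.7% of genes. Among those numbered 2 or 3, EtP (317 to 357 CPM) and MtP (362 to 523 CPM) did not overlap either, as for 10.7% of genes, and 1.35% of genes did both in the same direction. The means over the 3 labels were 376 CPM in EtP and 493 CPM in MtP. The fitted log2 fold change was -0.39 ± 0.14 (SE, 95% interval -0.68 to -0.10). It did not pass adjustment (adjusted p = 0.174, edgeR), while 1 of 18543 genes did (0.00539%). A fit with the library number as a term beside the groups called it (-0.38 ± 0.064, adjusted p = 0.00154, edgeR), among 13.4% of all genes, and called no other member. DESeq2 without that term gave -0.39 with an adjusted p of 0.129. By library number the difference was -0.47, -0.19 and -0.46.

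The other members had smaller fold changes between EtP and MtP in the fit without that term, with intervals that included 0. The fold change was 0.28 for gfap (95% interval -0.086 to 0.65), higher in 8 of 9 pairs, and without overlap in the libraries numbered 1 (110.4 to 129 CPM in EtP, 76.1 to 100.9 CPM in MtP). It was -0.20 for glula (-0.47 to 0.070), lower in 8 of 9 pairs and without overlap in the libraries numbered 1 (511 to 618 CPM in EtP, 640.3 to 723 CPM in MtP). Of all genes, 18.3% kept 1 direction in at least 8 of the 9 pairs, and 28.7% did not overlap in the libraries numbered 1. It was -0.15 for s100b (-0.32 to 0.024) and 0.17 for her4.1 (-0.074 to 0.41). For slc1a2b it was -0.12 (-0.38 to 0.14), and here the numbers disagreed. In libraries numbered 1, slc1a2b overlapped between EtP (957 to 1134 CPM) and MtP (950.7 to 1085 CPM). In those numbered 2 or 3 it was lower in EtP without overlap, at 696 to 739 CPM against 806 to 906 CPM, and 10.7% of all genes did not overlap there. In the fit with the number as a term, which called 13.4% of all genes, several of these intervals excluded 0. They were those of gfap (0.30, 0.087 to 0.51, adjusted p = 0.0546, edgeR), glula (-0.19, -0.33 to -0.049), slc1a2b (-0.14, -0.27 to -0.010) and s100b (-0.15, -0.29 to -0.0057), none called. That of her4.1 included 0 (0.16, -0.062 to 0.39).

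Without the libraries numbered 1, edgeR called 2 members between the EtP and MtP means, among 3714 of 18855 genes (19.7%). They were fabp7a with -0.36 ± 0.094 (SE, adjusted p = 0.0165, edgeR) and slc1a2b with -0.26 ± 0.071 (adjusted p = 0.0185, edgeR). The synthetase glula had -0.19 (adjusted p = 0.126, edgeR), s100b -0.18, gfap 0.22 and her4.1 0.041, and none of these passed. Markers of other organs moved with the same contrast. All 14 liver, 13 exocrine pancreas and 10 intestine genes of the marker lists were higher in EtP, with median log2 fold changes of 1.85, 1.72 and 1.42. In the libraries numbered 2 or 3 the summed liver markers held 2334 to 3446 CPM in EtP and 787 to 1377 CPM in MtP, the intestine markers 804 to 1664 and 263 to 521 CPM, and the 20 neuronal markers 3749 to 4020 and 4139 to 4714 CPM. In the libraries numbered 1 the liver markers overlapped (310 to 421 CPM in EtP, 267 to 471 CPM in MtP) and the neuronal markers lay higher in EtP (5323 to 5446 CPM) than in MtP (4748 to 5102 CPM), where fabp7a was again lower in EtP. The part of these shifts in the differences of fabp7a and slc1a2b was not tested. With all libraries and a scaling that sets the summed neuronal markers equal, fabp7a had -0.30 between EtP and MtP and slc1a2b -0.045. The values of glula (-0.10), s100b (-0.044), gfap (0.41) and her4.1 (0.26) complete the members, and none was called.

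**Figure D3:**
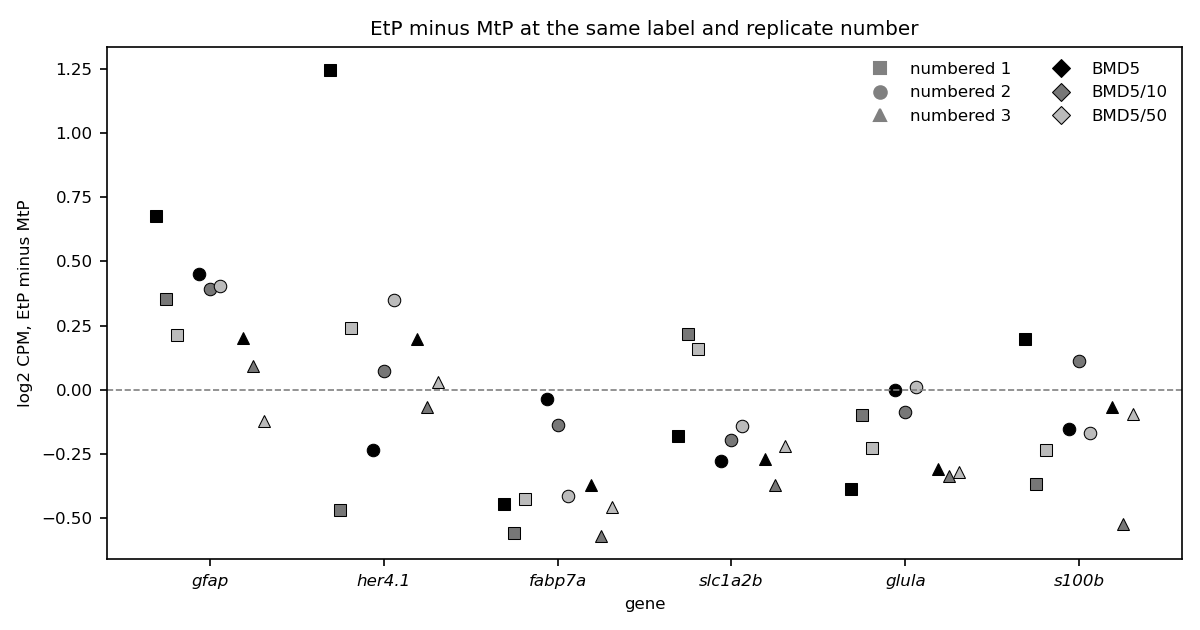
EtP minus MtP in log2 CPM for libraries of the same label and number, 9 points for each of the 6 genes, as a description without assumed pairing. All 9 points of fabp7a lie under 0, 8 of 9 of gfap lie above it and 8 of 9 of glula under it.

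Averaged over labels, propylparaben stood between the others for fabp7a. At BMD5 it did not, with a mean of 375.6 CPM against 383.1 CPM in EtP and 473.4 CPM in MtP. PrP held 433, 330.1 and 364 CPM at BMD5, 575, 391 and 391 CPM at BMD5/10 and 612, 300.1 and 409.7 CPM at BMD5/50, overlapping with EtP and with MtP. The fold change of fabp7a was -0.23 against MtP (95% interval -0.52 to 0.062) and 0.17 against EtP (-0.12 to 0.46), so neither a difference nor its absence was shown. For her4.1 PrP was above MtP by 0.33 (0.087 to 0.57, adjusted p = 0.836, edgeR), higher in 8 of 9 pairs of the same label and number (7.03% of all genes kept 1 direction in at least 8). The numbers were not taken to pair the libraries for the means of PrP and MtP either. In libraries numbered 1, her4.1 was at 15.101 to 17.6 CPM in PrP and at 9.14 to 13.5 CPM in MtP without overlap, as for 17% of genes, while in the others the compounds overlapped and 1.52% of genes did not. Against EtP the fold change of her4.1 in PrP was 0.16 (-0.080 to 0.40). None of the 6 genes was called between PrP and either of the other compounds (0% of all genes), and DESeq2 called none.

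Members passed the test between libraries numbered 1 and the others. In a fit with group and number, 4 of 6 members were called, beside 56.4% of all genes (5076 higher and 5384 lower in libraries numbered 1, median size of the log2 fold change 0.26). The lipid carrier fabp7a was higher by 0.46 ± 0.052 (SE, adjusted p = 1.7e-07, edgeR), the synthetase glula by 0.41 ± 0.055 (adjusted p = 1.8e-06) and the transporter slc1a2b by 0.41 ± 0.051 (adjusted p = 7.5e-07). The filament gene gfap went the other way, with a log2 fold change of -0.58 ± 0.087 (adjusted p = 6.0e-06, edgeR). Neither her4.1 (0.18 ± 0.089, adjusted p = 0.0890, edgeR) nor s100b (0.13 ± 0.057, adjusted p = 0.0545) passed. These contrasts concern the library number, which the labels do not explain.

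The direction held in 10 of 10 groups for fabp7a, slc1a2b, glula and gfap, as for 26% of all genes, and in 8 of 10 for her4.1 and s100b. For slc1a2b the 10 libraries numbered 1 held 951 to 1185 CPM (median 1050), and the 20 others 696 to 915 CPM, with no overlap, as for 4.31% of genes. For fabp7a they held 429 to 632 CPM (median 530.1) against 300.1 to 523 CPM, and for glula 511 to 812 CPM (median 629) against 403 to 580.2 CPM, with overlap. For gfap they held 66.2 to 129 CPM (median 98.3) against 97.6 to 208 CPM. Per group, the difference ran from 0.30 to 0.80 log2 for fabp7a, from 0.12 to 0.64 for slc1a2b, from 0.15 to 0.78 for glula and from -1.01 to -0.31 for gfap. Between libraries numbered 2 and 3, none of the 6 genes was called, beside 0.0863% of all genes (edgeR, adjusted p under 0.05). An unadjusted p under 0.05 was found for 2 of the 6 and for 1770 of 18543 genes over all (edgeR).

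Markers of other cell types moved with the number as well. Of 20 neuronal markers, 18 were called higher in libraries numbered 1 (median 0.30), and their sum was 4700 to 5559 CPM against 3749 to 4714 CPM. The sum of the 12 photoreceptor markers did not separate the numbers, at 9696 to 21730 CPM against 12260 to 17000 CPM. All 13 skeletal muscle, 12 epidermis, 14 liver, 13 exocrine pancreas and 10 intestine markers were called lower, with medians of -0.89, -1.27, -2.41, -3.05 and -1.67. Of 7 tested markers of microglia and macrophages, 4 were lower and none higher. Of 10 oligodendrocyte and myelin markers, 5 were lower and 1 higher, and of 10 Muller glia markers, 6 were lower and 1 higher. Every gene of these marker lists had reads, and myrf of oligodendrocytes, p2ry12, csf1ra and csf1rb of microglia and pla2g1b of the pancreas were at 0 in some libraries. Their part in the differences of the 6 genes was not tested. Relative to the summed neuronal markers (a scaling that sets those equal), gfap was lower by a log2 fold change of -0.90, fabp7a stayed higher by 0.16 and slc1a2b by 0.093, glula was no longer called (0.10, adjusted p = 0.152, edgeR) and s100b turned to -0.18 (adjusted p = 0.0183). The sign of her4.1 turned as well (-0.13, adjusted p = 0.236, edgeR), without a call.

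**Figure D4:**
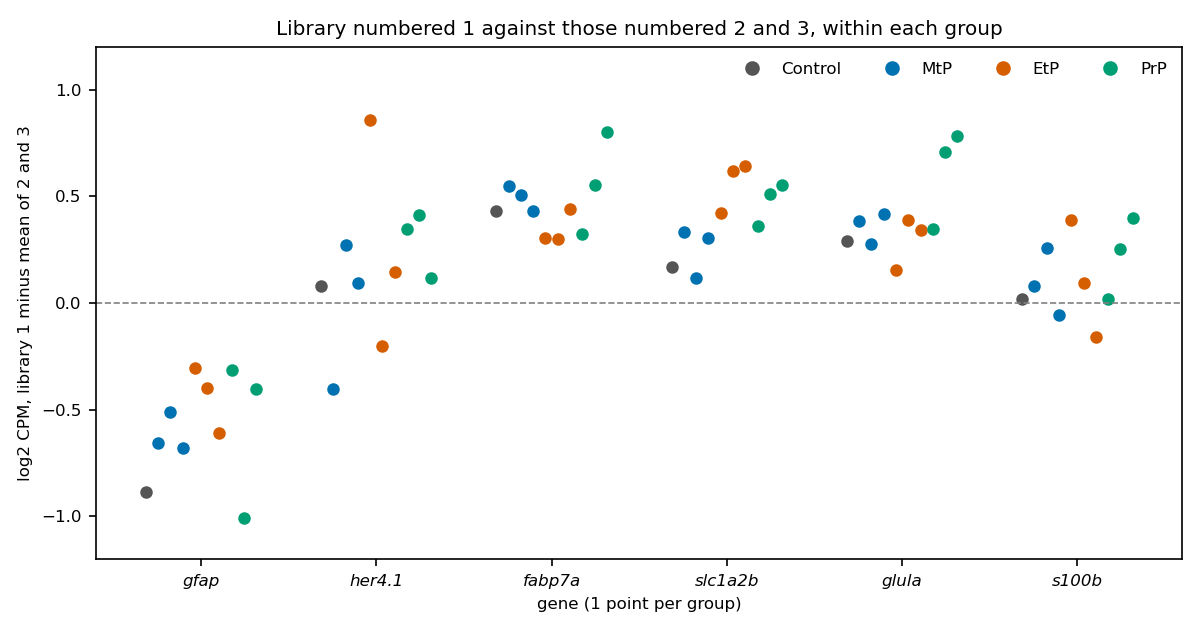
Log2 CPM of the library numbered 1 minus the mean of those numbered 2 and 3, in each of the 10 groups, for each of the 6 genes. All points of fabp7a, slc1a2b and glula lie above 0 and all points of gfap under 0, while her4.1 and s100b each have 2 points under 0.

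Wider gene lists gave the setting of the members, and none of their genes was called against Control (edgeR, 0% of all genes). Of 25 tested other radial glia and astroglia genes, 17, 13 and 14 had a positive fold change in the means of MtP, EtP and PrP, with medians of 0.069, 0.0089 and 0.070, beside -0.0068, 0.0070 and 0.0043 over all genes. The smallest p-values were those of atp1a1b, a sodium pump subunit (0.22 in MtP and 0.31 in EtP), the prostaglandin D synthase genes ptgdsb.2 (0.39 in MtP) and ptgdsb.1 (-0.65 in EtP and -0.59 in PrP), and atp1b4 (0.16 in PrP). Among 20 genes of the Notch pathway, 8, 6 and 9 were positive, and numb, an inhibitor of Notch, had negative values in all compounds (-0.36 in MtP, -0.48 in EtP and -0.35 in PrP). The ligand gene jag1a had -0.25 in EtP and -0.22 in PrP.

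Of the 14 tested her and hey genes, which encode repressors, 9, 6 and 6 were positive, with medians of 0.054, -0.0077 and -0.012. Named by smallest p were her6 (0.14) and her12 (0.26) in MtP, her15.2 (-0.47) and her2 (-0.34) in EtP, and her12 (0.24) and her4.3 (0.80, at 0 to 23 reads per library) in PrP. Of 15 neural progenitor genes, 12, 4 and 10 were positive, and the smallest p-values were those of the SoxB factor genes sox3 (0.22) and sox2 (0.17) in MtP, sox19a (-0.26) and the proneural gene ascl1b (-0.25) in EtP, and sox19a (-0.26) and the RNA-binding protein gene msi1 (0.16) in PrP.

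For the glutamate and glutamine cycle, 6, 10 and 9 of 18 tested genes were positive. The transporter slc1a1, which also takes up glutamate and is mainly neuronal in mammals, had 0.14 in MtP, 0.36 ± 0.092 (SE) in EtP and 0.26 ± 0.091 in PrP, none called. The other genes named were the vesicular glutamate transporter slc17a7a (-0.43 in MtP), the amino acid transporter slc38a3a (-0.26 in EtP) and slc1a2a (0.48 in PrP). Intermediate filament genes were positive in 11, 11 and 10 of 13 cases. The neuronal filament genes nefma (0.80 ± 0.22) and prph (0.44 ± 0.13) led in EtP, prph (0.23) and neflb (0.20) in MtP, and prph (0.23) and neflb (0.26) in PrP. In the s100 family, other than s100b, most values were negative, with 0, 3 and 0 of 11 positive and medians of -0.31, -0.055 and -0.30. Its named genes were s100v2 (-0.30) and s100v1 (-0.61) in MtP, s100a10a (0.63) and icn2 (-0.41) in EtP, and s100v2 (-0.38) and icn2 (-0.66) in PrP. Epidermis markers, of which 0, 2 and 0 of 12 were positive (medians -0.49, -0.20 and -0.51), moved with this family, and their part in it was not tested. Of 8 fabp genes, 7, 5 and 5 were positive, and the named ones were fabp11a (0.21) and fabp7b (0.41) in MtP, the intestinal genes fabp1b.1 (1.99 ± 1.03) and fabp2 (1.68 ± 0.87) in EtP, and fabp6 (-0.56) and fabp2 (0.95) in PrP.

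Between library numbers the same lists were called in part, beside 56.4% of all genes. Of the other radial glia and astroglia genes 9 of 25 were higher and 5 lower in libraries numbered 1, led by the proteoglycan gene cspg5b (0.47), ptgdsb.2 (0.43) and the folate enzyme gene aldh1l1 (-0.83). The copies did not all follow their partners. The paralog fabp7b (0.53) was higher like fabp7a and slc1a2a (0.54) like slc1a2b, whereas glulb was not called (-0.022). The copies her4.2 and her4.4 were called higher, while her4.1 was not called (0.18). The related transporter gene slc1a3a was lower (-0.49). In the Notch pathway 11 of 20 were higher and 3 lower, led by the receptor genes notch2 (-0.83) and notch1a (0.27) and the ubiquitin ligase gene mib1 (0.25). Of the her and hey genes 7 of 14 were higher, led by her4.4 (0.35), her12 (0.35) and her4.2 (0.25), and of the progenitor genes 9 of 15, led by neurod4 (0.49), neurod1 (0.78) and msi1 (0.31). In the glutamate cycle 5 of 18 were higher and 7 lower, led by the glutamate dehydrogenase genes glud1b (-0.87) and glud1a (-1.15) and by slc38a5b (-1.09). Of the fabp family 1 of 8 was higher and 4 lower, led by fabp1b.1 (-2.72), fabp2 (-2.22) and the liver gene fabp10a (-2.42). All 11 genes of the s100 family other than s100b were lower, led by s100a10a (-1.43), icn (-1.08) and s100a10b (-1.001). Of 13 intermediate filament genes 1 was higher and 8 lower, led by the desmin genes desma (-1.35) and desmb (-1.35) of muscle and by vim (-0.36), a filament gene that glia share with other cells.

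Relations among the members were computed within the 10 libraries numbered 1 and within the 20 others, for 15 pairs in each. In the 20 libraries numbered 2 or 3, 3 pairs passed Benjamini-Hochberg adjustment over the 30 relations by Pearson's r. The strongest was fabp7a with glula (r = 0.81, permutation p = 2.0e-05 and adjusted 6.0e-04; Spearman's rho = 0.80, permutation p = 5.0e-05 and adjusted 0.0015), with r = 0.76 without the 2 libraries farthest from the median of fabp7a. Next by r came fabp7a with s100b, where r was 0.74 (permutation p = 2.4e-04 and adjusted 0.0036), but rho was 0.58 (permutation p = 0.00786 and adjusted 0.0635) and r fell to 0.49 without 2 libraries, so this relation rests in part on those libraries. The third was slc1a2b with glula (r = 0.67, permutation p = 0.00116 and adjusted 0.0116; rho = 0.70, permutation p = 0.00108 and adjusted 0.0162; r = 0.62 without the 2 farthest). Group means over all 3 libraries of a group were also subtracted. The values numbered 2 and 3 then carry the shift of the library numbered 1. They are not independent within a group, which the permutation p-values do not take into account. With the means subtracted, fabp7a with glula passed by r (0.79, adjusted permutation p = 0.0018) and by rho (0.79, adjusted permutation p = 0.0024). The other 2 pairs then passed by r alone. For fabp7a with s100b r was 0.67 (adjusted permutation p = 0.0246) and rho 0.55 (adjusted 0.201). For slc1a2b with glula r was 0.62 (adjusted permutation p = 0.0313) and rho 0.44 (adjusted 0.532), and r fell to 0.27 without the 2 farthest libraries, so it rests on those. In the 10 libraries numbered 1 none of the 15 pairs passed, with fabp7a and glula at r = 0.74 (permutation p = 0.0141 and adjusted 0.0705) and rho = 0.79 (permutation p = 0.00847 and adjusted 0.0635). The filament gene gfap and her4.1 had no relation to another member that passed in either set of libraries. The libraries of a set differ in group and in markers of other tissues. Summed liver markers, for instance, ran from 676.5 to 3446 CPM in those numbered 2 or 3. The part of such differences in these relations was not tested. The share of pairs over all genes that would pass was not computed, so the pairs that passed have no background beside them.

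The genes most like each member over the 30 libraries, by Pearson's r of log2 CPM after subtracting the mean of the same-numbered libraries, differed between members. They are given as a description. For gfap they were cd81a (0.79), pbxip1b (0.78), prph (0.78), cldn7a (0.77) and nefmb (0.77). For her4.1 they were fam3c (0.74), qki2 (0.73), cby1 (0.71), cgna (0.66) and si:dkey-96n2.1 (0.65). For fabp7a they were tcea1 (0.94), ptp4a2a (0.90), rrm2 (0.86), cbx5 (0.86) and oaz1a (0.86). No gene was named for more than 1 member. For slc1a2b they were kirrel3l (0.93), gphna (0.93), clasp2 (0.92), magi1b (0.91) and epb41l3a (0.91). For glula they were inaa (0.87), gnao1b (0.85), ptmab (0.85), ip6k1 (0.85) and asmt2 (0.85). For s100b they were elocb (0.80), mrps17 (0.75), bud31 (0.73), u2af2b (0.73) and marcksb (0.71). These genes share the libraries and their depth with the members.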

How the data were processed

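RNA-seq of whole larvae was available as 1 deposited table of 59876 transcripts in 30 libraries. Per the file headers it holds read counts per transcript, with RPKM and TPM values that the authors computed. It also gives the authors' log2 fold change, p-value and q-value of each treated group against Control, per the file headers. They were used as deposited, with the aligner, the counting tool, the build and the statistical test not given in the sources used here. Deposited counts were summed per gene symbol (31846 symbols, of which 533 join several gene IDs). Of 32520 gene IDs, 29201 matched the gene name reference. No 2 libraries held identical counts (0 pairs). Columns named PP were taken as PrP. TPM was used for levels between genes and RPKM to check their order.

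The main test was the quasi-likelihood test of edgeR 4.0.16 with limma 3.58.1 in R 4.3.3, on genes that passed filterByExpr (minimum count 10), scaled by TMM, in a model of 10 group means over the 30 libraries. Benjamini-Hochberg adjustment was made within each comparison over 18543 genes, at 0.05, and intervals are 95%. CPM is the count relative to the TMM-scaled library size, and log2 CPM has a prior count of 2. Fits of the library number hold group and number. Relations used 100000 permutations (scipy 1.17.1, Python 3.11.15). Scripts were tested on simulated data. DESeq2 1.42.0 was an alternative. Counting error alone is covered by the read numbers, which are not independent molecules.

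The labels number the libraries 1 to 3. Numbers were taken to pair the libraries where deviations of all same-numbered libraries from their group means correlated above 0.1 across genes, which held in 14 of the 21 pairwise comparisons and, of the compound means, for MtP against Control. The main test and its intervals left the number out in all comparisons, also in these. A fit with the number as a term was run as an alternative. The members and the lists were chosen with earlier results of these data known. Named genes of a list are those with the smallest p, 3 where a gene of the list was called and 2 otherwise, and the genes most like a member needed a mean of at least 5 CPM. A gene that the rule on lists names is not reported here. Listed genes not used here were fabp4a, fabp4b, hepacamb, her4.5, ina, maml2, ncstn and slc38a1. Further listed genes were not among those tested. In the list of other radial glia and astroglia genes these were aqp4, kcnj10a, gpr37l1a and cyp19a1b.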

Additional observations from a re-analysis of the deposited data

Results flagged for a closer look

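Between the means of EtP and MtP, fabp7a and slc1a2b were called by edgeR once the libraries numbered 1 were left out of all groups. They were flagged as differences between compounds, though the same fit called 3714 of 18855 genes (19.7%). The log2 fold change of fabp7a was then -0.3551 (adjusted p = 0.0165, edgeR), and it was -0.39 (adjusted p = 0.174) with all libraries. The log2 fold change of slc1a2b was then -0.2605 (adjusted p = 0.0185, edgeR), and it was -0.12 (adjusted p = 0.627) with all libraries. By number, fabp7a lay lower in EtP by 0.47, 0.19 and 0.46 in size (log2 differences -0.47, -0.19 and -0.46), whereas slc1a2b had 0.066, -0.20 and -0.29. Whether the difference of slc1a2b itself depends on the number was not tested.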

How the results depend on the processing

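Against Control, between compounds at a given label and between labels of the same compound, 0 of the 6 genes were called under each alternative run (RLE or neuronal scaling, DESeq2, no low-count filter, protein coding transcripts alone, the compared groups alone, each replicate left out, the libraries numbered 1 left out, and the replicate block). Between the means of EtP and MtP the count moved from 0 to 2 without the libraries numbered 1 (fabp7a and slc1a2b) and to 1 with the replicate block (fabp7a, -0.38, adjusted p = 0.00154, edgeR, 2479 genes called over all). The cause was not tested. The numbers were not taken to pair the libraries of these groups, as the lowest of their correlations was 0.052 (highest 0.60), and 27 of 54 library matches were best with their own number. With the block, 2 members, fabp7a and gfap, were called under DESeq2 (gfap 0.31) and under neuronal scaling (gfap 0.39), alternatives chosen after seeing the data. Over all 18543 genes these called 2615 and 2039. Leaving out each replicate gave 1 to 2 members, beside 13.4% of all genes with no library left out. There fabp7a was called in 18 of 18 fits, glula in 3, s100b in 1 and gfap in 0. The replicate block changed no other call of a member.

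For the library number, neuronal scaling reversed s100b to -0.1788 and ended the call of glula (0.10), which follows from setting the neuronal markers equal, and RLE scaling called s100b (0.14). Under neuronal scaling her4.1 also changed sign, from 0.18 to -0.13, and was called in neither fit. Of 30 fits leaving out a library, her4.1 was called in 1 (without MtP BMD5 replicate 1, 0.23) and s100b in 6 (0.14 to 0.15; without Control replicate 2, MtP BMD5 replicate 3, MtP BMD5/10 replicate 3, MtP BMD5/50 replicate 2, EtP BMD5/10 replicate 2 or EtP BMD5/50 replicate 1), while the other 4 kept their calls in 30 of 30. Of all fold changes of members, the sign changed in 17 of 174 under neuronal scaling (s100b and her4.1 above among them) and in 18 of 162 without the libraries numbered 1.

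Counts over all genes moved in the EtP against MtP means to 241 (DESeq2), 3 (neuronal scaling), 2 (groups alone) and 1 to 18 (leaving out a replicate). Without the libraries numbered 1 they moved from 0 to 582, 68, 393 and 120 for EtP against Control (mean, BMD5, BMD5/10, BMD5/50), to 63 and 482 for EtP against MtP at BMD5 and BMD5/10, to 277 for PrP against EtP, to 94 for PrP against MtP and to 256 for any difference among groups. With the block, 10 genes were called for PrP against MtP, 1 for EtP against MtP at BMD5/10 and 1 for any difference, and DESeq2 gave 2 for PrP against MtP, 8 for any difference and 93 (16 by edgeR) between libraries numbered 2 and 3. In the comparisons of groups, neuronal scaling moved the median of all genes by up to 0.13 (log2) and RLE by up to 0.020. For the library number that move was not computed. There neuronal scaling took fabp7a from 0.46 to 0.16 and gfap from -0.58 to -0.90. The fewest reads were those of her4.1, while gfap had the largest median standard error against Control (0.31).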
